A study of Mus musculus with 4 samples.

Results

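The Src-family kinases and the adhesion signalling genes that work with them were followed on 4 arrays of mouse neural stem cells. The group holds 9 genes (Src, Fyn, Yes1, Lyn, Csk, Pag1, Ptk2, Bcar1 and Ptpn11), chosen by gene name from the array's own annotation, of 22378 genes with a probe. They were read by 11 of 55681 probes: Ptk2 had 3 probes and every other gene had 1. The names were not chosen by measured values within the list, but the list was drawn up when results of these arrays were already known.

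Total RNA was measured on single-colour Agilent arrays, 1 array for each of 4 groups, in cells that were all p53-/- and grown in serum-free medium made for neural stem cells. The NSC array held neural stem cells taken from brains of mouse embryos (E14.5). NSC-Ceacam1L were such cells with an expression vector for Ceacam1L, the long form of the adhesion molecule Ceacam1. NSCL61 was a cell line with the same labelled tissue, age and genotype. It is known as a line that forms gliomas and was derived by putting activated Ras into p53-null neural stem cells. The NSCL61-Ceacam1sh cells were this line with a short hairpin RNA against Ceacam1. Hygromycin was applied for 1 week to select the cells that took up a vector. Whether NSC and NSCL61 received an empty vector, and whether a culture was 1 clone, is not in the labels. The series asked which genes follow Ceacam1, by setting NSC-Ceacam1L against NSC and NSCL61-Ceacam1sh against NSCL61. With 1 array per group no difference has a replicate check and no p-value can be given: the precision is limited by the number of arrays.

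Src, Fyn, Yes1 and Lyn are membrane-anchored tyrosine kinases of the same family. Each is held inactive when a tyrosine in its tail is phosphorylated by Csk, and Pag1 is a membrane adaptor that brings Csk to lipid rafts. At focal adhesions, where integrins grip the matrix, an active Src-type kinase joins focal adhesion kinase (Ptk2) and phosphorylates the docking protein p130Cas (Bcar1), which recruits Crk and drives cell migration. Ptpn11 encodes the tyrosine phosphatase SHP2, which binds adaptors such as Gab1 and is needed for full Ras and ERK signalling. Long-tailed CEACAM1 carries tyrosine motifs in its tail that Src-type kinases phosphorylate and that bind SHP2. In the developing brain Fyn also acts below Reelin, and Lyn is best known from blood cells. All of this control runs through phosphorylation, which RNA arrays do not measure.

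The levels and differences turn on a few probes. The Src probe and the distal Ptk2 probe are given whole, because the first is 60 bases that span 932 on the genome and the other checks the main Ptk2 probe. Of the probes behind the largest differences, Fyn, Lyn and Bcar1, the first 30 of 60 bases are given. Sequences are those of the array's annotation, 5′ to 3′ on the strand of the transcript.
Src, chromosome 2, 157293336 to 157294267, plus strand, mm9: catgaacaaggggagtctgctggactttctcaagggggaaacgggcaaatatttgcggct
Ptk2 distal probe, chromosome 15, 73151206 to 73151265, minus strand, mm9: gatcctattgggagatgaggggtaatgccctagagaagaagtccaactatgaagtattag
Fyn, chromosome 10, 39284572 to 39284631, plus strand, mm9: agcgaactgtgattcgttcttgaaacttag
Lyn, chromosome 4, 3718682 to 3718741, plus strand, mm9: ctgcattgtctactttatttcatggaaagg
Bcar1, chromosome 8, 114234418 to 114234477, minus strand, mm9: cacacctctgcaccaagaaaaaccctaaag
The coordinates cover the whole probe in each case. Exon and UTR annotation on mm9 was not used here.

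Levels are log2 of the processed signal divided by the array's 75th percentile of signals, so 0 is the 75th percentile. The error after ± is the scanner software's modelled error for the spot. It covers technical spread within an array and no variation between cultures. A probe was seen when the scanner software marked it well above background. Levels of different probes are not read as relative amounts of RNA, since probes differ in how strongly they bind. Marker sums add the levels of different probes, so the brightest probes weigh most in them. In these bulk cultures, fewer cells of a type and less RNA per cell cannot be told apart.

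The NSCL61-Ceacam1sh array stood apart from the others, and this touches each value taken from it. Across 12496 genes seen on all 4 arrays, its Pearson correlation with the other arrays was 0.84 to 0.861, against 0.933 to 0.973 among those 3. It was 0.846 with NSCL61, its labelled parent line, 0.861 with NSC and 0.84 with NSC-Ceacam1L. These are correlations across genes, which are not independent replicates. Of 10 neural stem cell markers, 10 were seen on each NSC array, 9 on NSCL61 and 8 on NSCL61-Ceacam1sh. Their summed level was 880 on NSC and 702 on NSC-Ceacam1L, then 953 on NSCL61 and 321 on NSCL61-Ceacam1sh, in units of the 75th percentile. Sox2 and Nes were present on the NSCL61-Ceacam1sh array at 2.36 and 4.95, while Hes5 and Olig2, both seen on the other 3 arrays, were not well above background there. The 5 astrocyte markers summed to 282, 497 and 694 on the first 3 arrays and 1.51 on the fourth. Fibroblast markers (3, 4, 5 and 6 of 8 seen) summed to 2.35, 13.6, 0.435 and 32.4, neuron markers (3, 4, 3 and 2 of 5 seen) to 10.8, 9.52, 44.4 and 1.85, and endothelial markers (2, 2, 3 and 2 of 5 seen) to 10.8, 8.65, 13.9 and 8.62. The fibroblast sums on NSC and NSC-Ceacam1L were mostly Thy1 (1.00 and 3.71). Thy1 was not well above background on NSCL61-Ceacam1sh, where Mgp (3.42) and Dcn (3.31) were the brightest of these markers. The endothelial sums were mostly Kdr on each array. The RNA Xist, made from the inactive X chromosome, was at 1.85, 1.26 and 0.42 on the first 3 arrays and -4.05 on NSCL61-Ceacam1sh. Whether that array held the labelled line could not be settled here. The part of cell makeup in the results that follow was not tested. All arrays lay on 1 slide and each group had its own position, so that slide position and group cannot be told apart. No probe was named for Ceacam1, and 4 of the 20 probes bearing a Ceacam name were seen on any array, so the expression vector and the hairpin were not checked here.

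**Figure D1:**
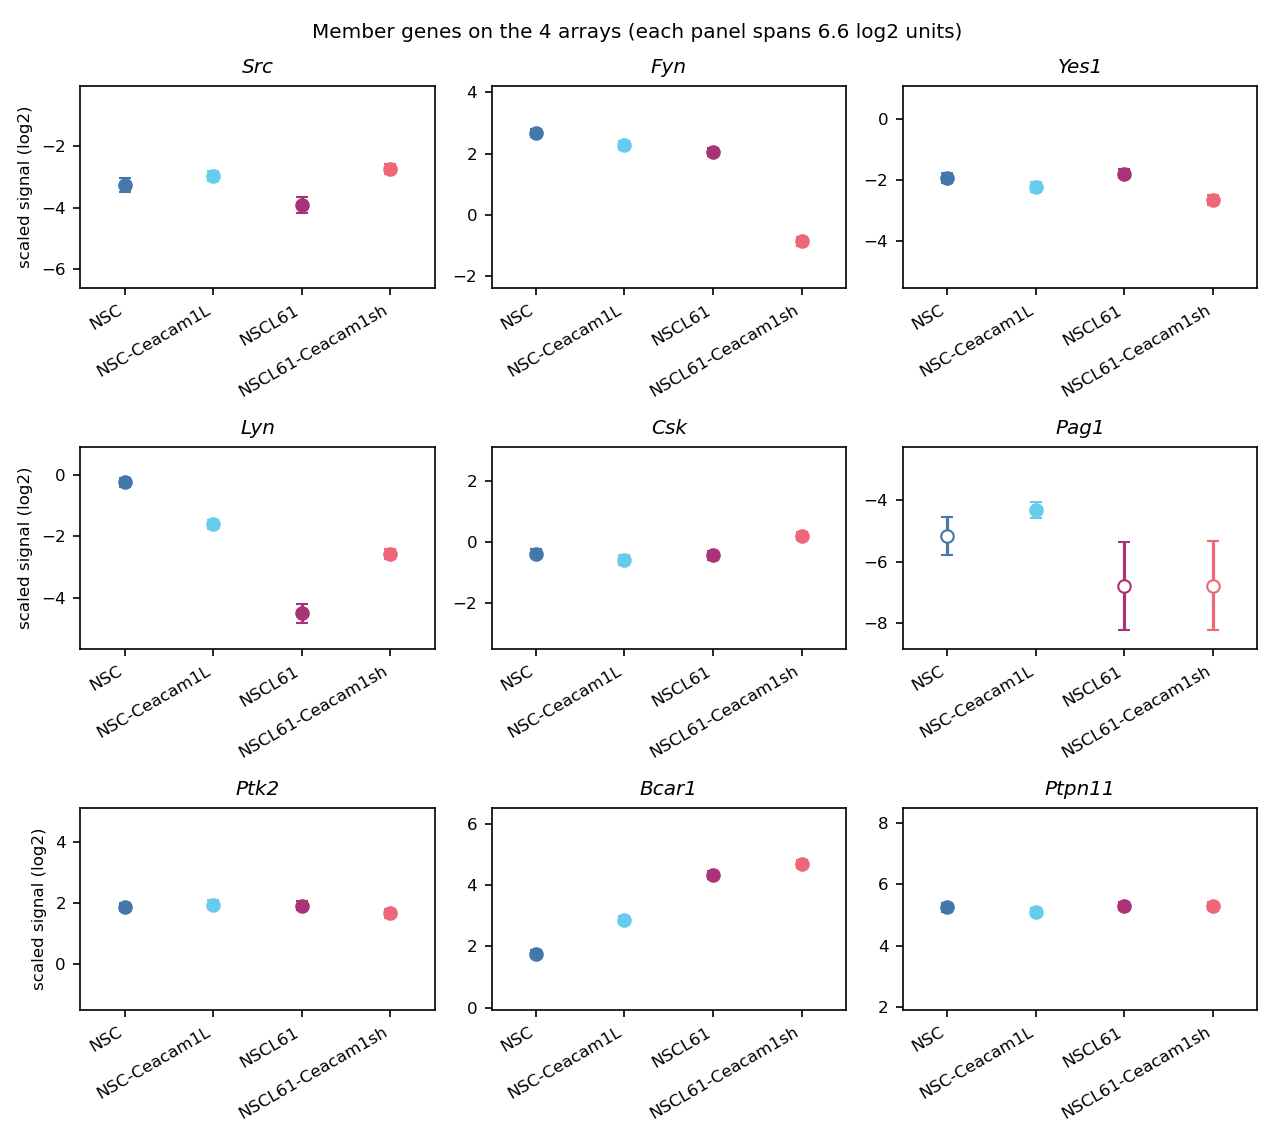
Scaled signal (log2, vertical axis) of each of the 9 genes on the 4 arrays; points are single arrays, bars are the scanner's modelled error, and open points are not well above background. Lyn spans 4.28 log2 units, Fyn 3.54 and Bcar1 2.95, whereas Ptpn11 stays within 0.19.

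Of the kinases, Lyn varied most. Its level was -0.24 ± 0.15 on NSC and -1.60 ± 0.15 on NSC-Ceacam1L, then -4.52 ± 0.30 on NSCL61 and -2.57 ± 0.16 on NSCL61-Ceacam1sh, from processed signals of 406, 188.7, 19.14 and 91.38. The NSC array was highest and the NSCL61 array lowest, and each step in the order exceeded 2 modelled errors: 1.36 ± 0.21 from NSC to NSC-Ceacam1L, 0.97 ± 0.22 from there to NSCL61-Ceacam1sh, and 1.95 ± 0.34 from there to NSCL61. Lyn was therefore 2.56-fold lower on NSC-Ceacam1L than on NSC, 3.87-fold higher on NSCL61-Ceacam1sh than on NSCL61, and 19.4-fold lower on NSCL61 than on NSC (-4.28 ± 0.33, or -2.51 with normexp background correction). Since Lyn is abundant in microglia and other blood cells, their markers were read beside it. Of 8 such markers, Aif1, P2ry12, Tyrobp and Ptprc were not well above background on any array, while Csf1r, Itgam and Cd68 were seen on all 4. Cx3cr1 was seen on NSCL61 alone, at -2.83. The summed level of the 8 was 21.6 on NSC and 26.8 on NSC-Ceacam1L, then 28.4 on NSCL61 and 12.9 on NSCL61-Ceacam1sh. Itgam was the brightest of the 8 on each array, at 4.14, 4.58, 4.51 and 3.23 in that order, and the part of such cells in the Lyn values was not tested.

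Fyn was high on 3 arrays and low on the fourth. Its level was 2.68 ± 0.14 on NSC and 2.27 ± 0.14 on NSC-Ceacam1L, then 2.06 ± 0.14 on NSCL61 and -0.86 ± 0.15 on NSCL61-Ceacam1sh, from signals of 3070, 2759, 1828 and 297.7. The step from NSCL61 to NSCL61-Ceacam1sh was 7.58-fold (-2.92 ± 0.21). The others were small: NSC-Ceacam1L lay 0.40 ± 0.20 below NSC, and NSCL61 0.21 ± 0.20 below NSC-Ceacam1L, each within 2 modelled errors. The NSCL61-Ceacam1sh array that carries the Fyn difference also had the lowest summed levels of the astrocyte and neural stem cell markers. The stem cell markers were mixed. Fabp7 was at 8.36 on NSCL61 and -4.00 on NSCL61-Ceacam1sh, and Vim at 8.76 and 8.13. Prom1 was seen on NSCL61-Ceacam1sh (-2.28) but not on NSCL61. The part of cell makeup in the Fyn values was not tested.

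Src and Yes1 varied less. Src, the founding member of the family, was dim but seen on every array, at -3.25 ± 0.23 on NSC and -2.97 ± 0.17 on NSC-Ceacam1L, then -3.91 ± 0.26 on NSCL61 and -2.74 ± 0.17 on NSCL61-Ceacam1sh (signals 50.5, 73.02, 29.26 and 80.96). It was 2.24-fold higher on NSCL61-Ceacam1sh than on NSCL61 (1.17 ± 0.31), and no neighbours in its order differed by more than 2 modelled errors. Yes1, its close relative, was at -1.93 ± 0.16, -2.23 ± 0.16, -1.80 ± 0.15 and -2.67 ± 0.17 in the same order of arrays. It was lowest on NSCL61-Ceacam1sh, 1.82-fold below NSCL61 (-0.86 ± 0.23), which is under the 2-fold used for calls and was -0.43 to -0.57 under median, spike-in and quantile normalization and normexp. Against NSCL61, Lyn and Src were thus higher on NSCL61-Ceacam1sh and Fyn lower. Of all genes, 23.5% were higher and 24.2% lower past 2-fold in that comparison, so calls in both directions are not particular to the family. With normexp background correction, in which an added offset shrinks differences of dim signals, the differences of Lyn and Src kept their sign but were 0.67 and 0.35.

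The inhibitors of the family gave few differences. Csk was at -0.38 ± 0.15, -0.58 ± 0.15, -0.43 ± 0.15 and 0.20 ± 0.14 on NSC, NSC-Ceacam1L, NSCL61 and NSCL61-Ceacam1sh. The first 3 of these were within 1 modelled error of their neighbours, and NSCL61-Ceacam1sh lay 0.58 ± 0.21 above the next array, NSC. Against NSCL61 it was 1.54-fold higher (0.62 ± 0.20), which passed 2-fold under median scaling (1.04) and spike-in scaling (1.05). Pag1 was seen on NSC-Ceacam1L alone, at -4.31 ± 0.27, and was not well above background at -5.15 ± 0.62 on NSC, -6.80 ± 1.45 on NSCL61 and -6.79 ± 1.45 on NSCL61-Ceacam1sh. No bound above 1-fold could be set for it, because the dimmest signals called well above background on NSC were at least as bright. Its difference between NSC-Ceacam1L and NSC was 0.84 ± 0.67, past 2-fold under cyclic loess (1.11) and spike-in scaling (1.22) and -0.03 with normexp.

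Of the adhesion partners, Bcar1 stepped up across the arrays and the main probe of Ptk2 stayed level. Bcar1 was at 1.75 ± 0.14 on NSC and 2.86 ± 0.14 on NSC-Ceacam1L, then 4.33 ± 0.14 on NSCL61 and 4.69 ± 0.14 on NSCL61-Ceacam1sh, from signals of 1610, 4149, 8805 and 14010. NSC was lowest and both NSCL61 arrays highest. The steps were 1.11 ± 0.20 and 1.47 ± 0.20, each beyond 2 modelled errors, and then 0.37 ± 0.20, which was not. Bcar1 was 2.17-fold higher on NSC-Ceacam1L than on NSC and 5.98-fold higher on NSCL61 than on NSC (2.58 ± 0.20). Between NSCL61-Ceacam1sh and NSCL61 it differed 1.29-fold, and the value ranged from 0.08 under cyclic loess to 0.80 under spike-in scaling.

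Ptk2, the focal adhesion kinase itself, was at 1.87, 1.95, 1.91 and 1.66 (± 0.14 each) on its brightest probe (chromosome 15, 73035632 to 73035691, minus strand, mm9), a range of 0.29. The distal probe printed above, 116 kb away on the genome, gave 0.26, -0.08, 0.05 and -0.30 (± 0.15 each), a range of 0.55, and was likewise lowest on NSCL61-Ceacam1sh. A further probe 10.4 kb from the brightest (73046031 to 73046090) was seen on NSCL61 alone, at -4.36 ± 0.32. There it was at least 1.31-fold brighter than on NSCL61-Ceacam1sh, and no bound could be set against NSC. The 2 bright probes gave opposite signs between NSC-Ceacam1L and NSC, 0.09 ± 0.20 and -0.34 ± 0.21, and both values are under 2 modelled errors. With the mean of the 3 probes, the dim one included, Ptk2 differed by -0.98 between NSCL61-Ceacam1sh and NSCL61 and by 0.47 between NSCL61 and NSC.

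Ptpn11, which encodes SHP2, was at 5.25, 5.10, 5.29 and 5.29 (± 0.14 each), from signals of 18300, 19630, 17200 and 21200. No neighbours in its order differed by more than 1 modelled error. Its differences were -0.15 ± 0.20 between NSC-Ceacam1L and NSC, -0.00 ± 0.20 between NSCL61-Ceacam1sh and NSCL61, and 0.04 ± 0.20 between NSCL61 and NSC. Between NSCL61-Ceacam1sh and NSCL61 the sign depended on the scaling, from -0.37 under cyclic loess to 0.43 under spike-in scaling. The phosphatase that binds CEACAM1 was therefore within 2-fold at the RNA level in each comparison and under each setting tried.

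**Figure D2:**
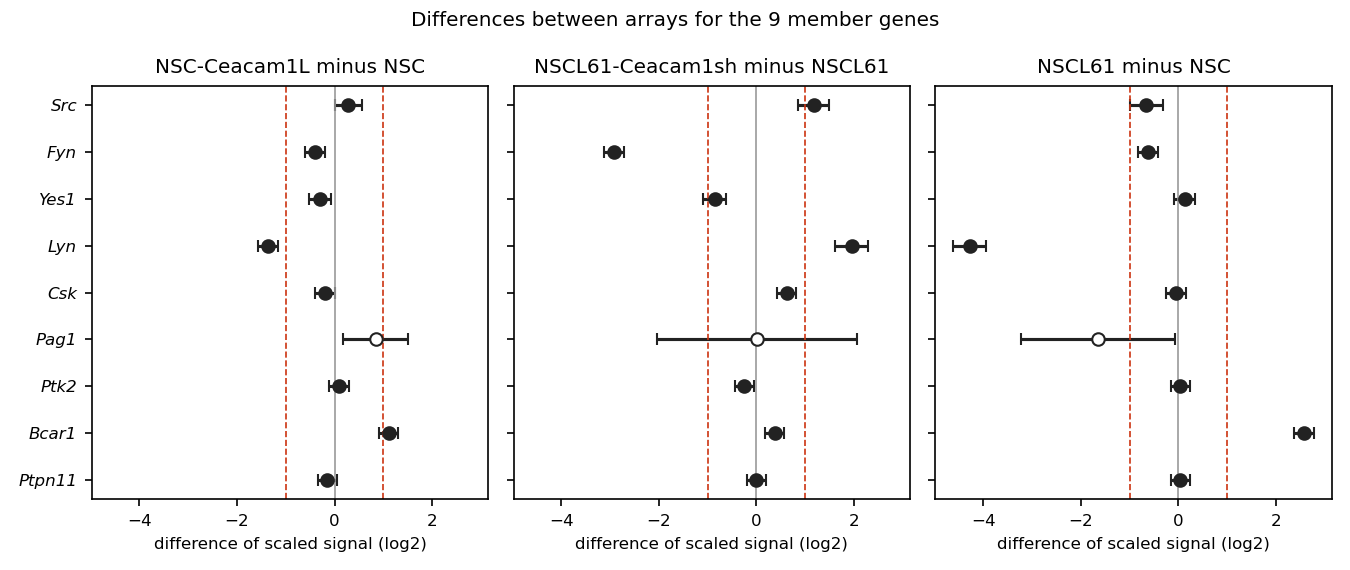
Difference of scaled signal (log2, horizontal axis) of each gene in the 3 comparisons; bars are the modelled error, dashed lines mark 2-fold, and the open point is Pag1, which was not well above background on both arrays. Lyn lies left of 0 in the left and right panels and right of 0 in the middle panel.

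In the comparison of NSC-Ceacam1L with NSC, Bcar1 was higher and Lyn lower, and the other 7 genes were within 2-fold. All 9 were evaluated, that is, seen on at least 1 of the 2 arrays, and 2 (22.2%) passed 2-fold. Of 15336 genes evaluated, 16.5% passed 2-fold, 10.5% higher and 6.04% lower. The genes had a median difference of -0.15 beside -0.10 over all genes, and a median size of 0.30 beside 0.39. Of all genes, 10.5% had a larger difference than Lyn (-1.36 ± 0.21) and 13.9% than Bcar1 (1.11 ± 0.20). Under spike-in scaling, which moved the median of all genes by 0.37, the difference of Lyn was -0.98 and missed 2-fold, and that of Bcar1 was 1.49. Higher genes made up 63.4% of the calls, 84.2% under spike-in scaling and 76.1% under cyclic loess.

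In the comparison of NSCL61-Ceacam1sh with NSCL61, Lyn and Src were higher and Fyn lower, 3 of 8 genes evaluated (37.5%). With 8 genes this is near the background: of 15636 genes evaluated, 47.7% passed 2-fold, 23.5% higher and 24.2% lower. The median difference was 0.18 beside 0.01 for all genes, and the median size 0.74 beside 0.94. A difference larger than that of Fyn was found in 15.3% of genes, larger than that of Lyn in 25.9%, and larger than that of Src in 42.1%. Under median scaling, which moved the median of all genes by 0.42, the share of calls that were higher went from 49.2% to 64.6%, and under spike-in scaling to 64.9%. Fyn remained lower under each setting tried, at -3.03 to -2.49.

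In the comparison of NSCL61 with NSC, Bcar1 was higher and Lyn lower, 2 of 8 genes evaluated (25.0%), beside 28.4% of 15318 genes (14.4% higher, 14.0% lower). The median difference was -0.00 beside 0.03 for all genes, and the median size 0.37 beside 0.51. Lyn, at -4.28, was exceeded in size by 2.75% of genes and Bcar1, at 2.58, by 8.98%. Src (-0.66 ± 0.34) and Fyn (-0.62 ± 0.20) were below NSC by less than 2-fold, and Yes1, Csk, Ptk2 and Ptpn11 differed by 0.13 or less. Spike-in scaling moved the median of all genes by -0.23, and higher genes made up 39.7% of the calls in place of 50.7%. This comparison shares the NSC array with the first and the NSCL61 array with the second, so the same 2 genes being called in it and in the first is not independent.

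The 2 comparisons that manipulate Ceacam1 share no array. Of the 8 genes evaluated in both, Lyn passed 2-fold in each, lower on NSC-Ceacam1L against NSC and higher on NSCL61-Ceacam1sh against NSCL61. Of 14370 genes evaluated in both, 9.77% passed 2-fold in each, 6.51% did so in opposite directions and 2.53% in the directions of Lyn, so 1 of 8 is near the background. The signs of Lyn held under the settings tried, at -1.38 to -0.98 and 0.67 to 2.38, but the first call was lost under spike-in scaling (-0.98) and the second with normexp (0.67).

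**Figure D3:**
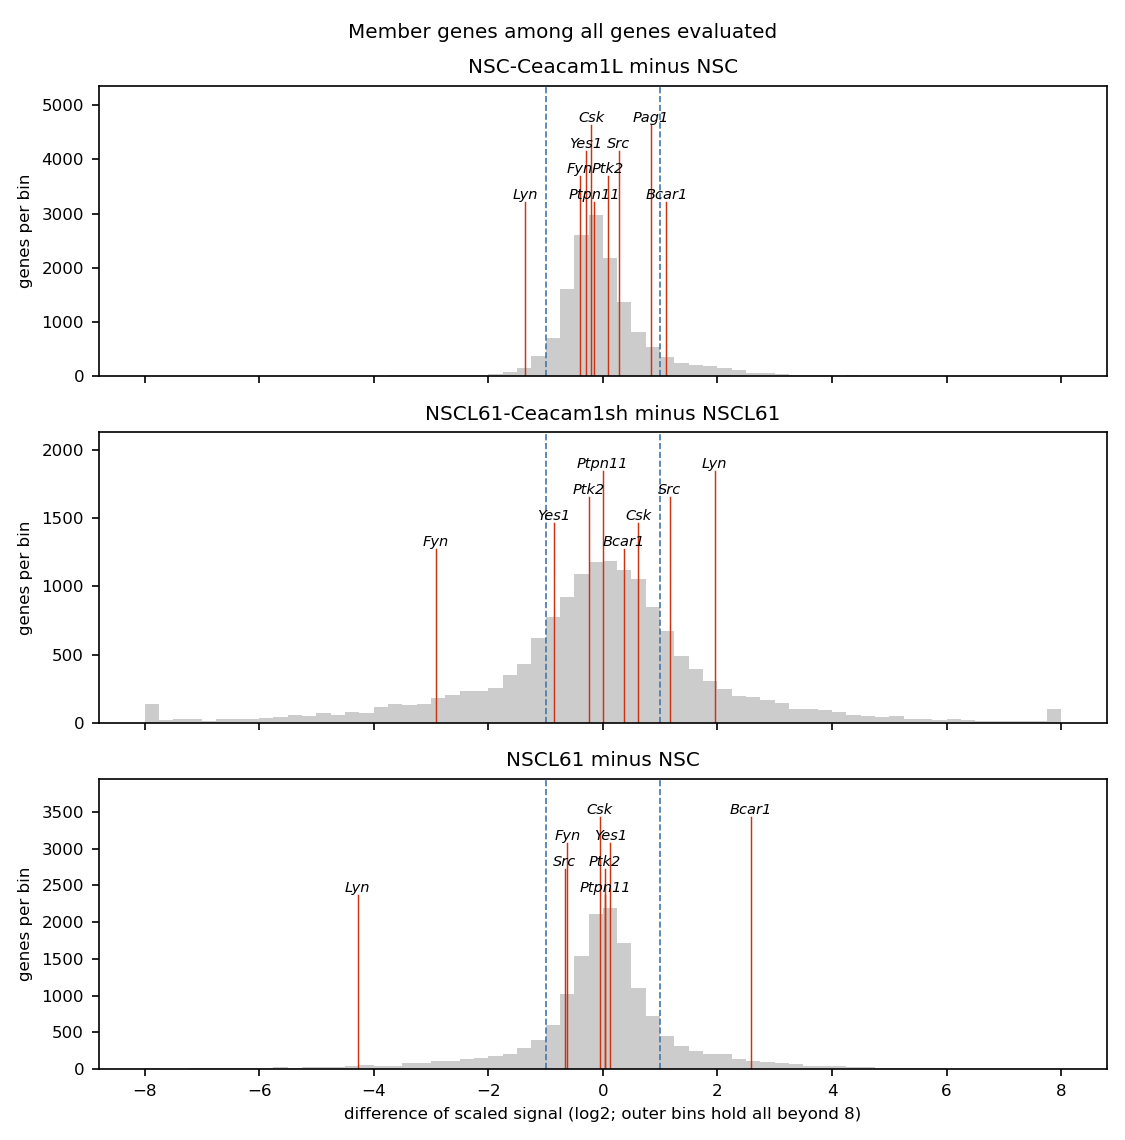
Histograms of the difference of scaled signal (log2, horizontal axis) over all genes evaluated, 15336, 15636 and 15318 from top to bottom, in bins of 0.25, with the member genes marked by red lines whose heights only separate the labels; dashed lines mark 2-fold. The middle panel, NSCL61-Ceacam1sh minus NSCL61, is the widest, and 47.7% of its genes lie past 2-fold.

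The other genes of the pathway were read from a list of 56 genes in 6 roles, of which 47, 49 and 47 were evaluated in the 3 comparisons. Between NSC-Ceacam1L and NSC, 4 were higher and 0 lower (8.51%, beside 16.5% of all genes), with a median of 0.03 beside -0.10. Between NSCL61-Ceacam1sh and NSCL61, 13 were higher and 9 lower (44.9%, beside 47.7%), with a median of 0.14 beside 0.01. Between NSCL61 and NSC, 5 were higher and 7 lower (25.5%, beside 28.4%), with a median of 0.08 beside 0.03. The shares called were thus below or near those of all genes. The 4 higher calls of the first comparison became 6 under spike-in scaling, 5 under cyclic loess and 3 with normexp. The split of the second comparison moved to 16 and 4 under median scaling and to 17 and 4 with spike-in scaling.

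Among further Src-type kinases, Fgr, Blk, Ptk6 and Srms were not well above background on any array. Lck, the T cell kinase, was seen on all 4 arrays and was within 2-fold in each comparison. Frk was seen on NSCL61-Ceacam1sh and was at least 1.74-fold higher there than on NSCL61, a call lost with normexp (0.34).

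Of 9 regulators of Src-type kinases, 8 were evaluated in each comparison. Calls made up 25.0% between NSC-Ceacam1L and NSC, beside 16.5% of all genes. They made up 37.5% between NSCL61-Ceacam1sh and NSCL61, beside 47.7%, and 37.5% between NSCL61 and NSC, beside 28.4%. The receptor phosphatase Ptpre, which can remove the inhibitory tail phosphate, was past 2-fold in each comparison. It was higher by 1.83 ± 0.21 on NSC-Ceacam1L, higher by 3.84 ± 0.26 on NSCL61-Ceacam1sh and lower on NSCL61 against NSC (-2.11 ± 0.27). Its relative Ptpra was lower on NSCL61-Ceacam1sh (-1.27 ± 0.20), a call lost under median and spike-in scaling. Ptpn22, a phosphatase of lymphoid cells that pairs with Csk, was at least 1.17-fold higher on NSC-Ceacam1L and higher by 3.48 ± 0.28 on NSCL61-Ceacam1sh, and was at least 1.31-fold higher on NSCL61 than on NSC, where the calls by a bound were lost with normexp (0.25 and 0.46). The Csk homologue Matk was lower on NSCL61 than on NSC (-2.07 ± 0.21).

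The 15 focal adhesion partners of Ptk2 were within 2-fold between NSC-Ceacam1L and NSC, with 0 called. On NSCL61-Ceacam1sh 5 of 14 were higher and 1 lower against NSCL61 (42.9%, beside 47.7% of all genes), and 2 of the 5 higher calls were lost under an alternative, Pxn with normexp and Tln1 under quantile normalization and cyclic loess. Parva, which links integrins to actin, was higher by 3.35 ± 0.20 and the LIM protein Zyx by 2.42 ± 0.20, while Lims1, whose product binds the same integrin-linked kinase as Parva's, was lower (-1.01 ± 0.20), a call lost under median and spike-in scaling and in the authors' deposited value table. Between NSCL61 and NSC 1 of 15 was called (6.67%, beside 28.4% of all genes): Tgfb1i1, a paxillin relative, was seen on NSC at 0.42 and was at least 33.5-fold lower on NSCL61.

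Of the Cas and Crk genes, 9 were evaluated and 22.2% called in each comparison. The share of all genes was 16.5% between NSC-Ceacam1L and NSC, 47.7% between NSCL61-Ceacam1sh and NSCL61, and 28.4% between NSCL61 and NSC. The group held the largest single difference among genes of the list seen on both arrays compared. Efs, the Cas-family relative of Bcar1, was at 3.43 on NSCL61 and -3.66 on NSCL61-Ceacam1sh, a difference of -7.09 ± 0.29, where Bcar1 differed by 0.37 ± 0.20. Bcar3, which binds Bcar1, was lower there (-1.83 ± 0.20). Between NSC-Ceacam1L and NSC, the Cas-family gene Nedd9 was higher by 1.45 ± 0.21 and Sh2d3c, a relative of Bcar3, by 1.93 ± 0.25. Bcar1 was higher there too, but the median of the 9 evaluated was 0.06, beside -0.10 for all genes. Higher calls were also the commoner kind over all genes, at 10.5% against 6.04% lower. Between NSCL61 and NSC, Sh2d3c was higher by 2.68 ± 0.25 and Dock1, the exchange factor recruited by Crk, lower (-1.19 ± 0.20).

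Of 8 partners of Ptpn11, 7 were evaluated between NSC-Ceacam1L and NSC and 0 were called, beside 16.5% of all genes. On NSCL61-Ceacam1sh, Shc1 was higher than on NSCL61 by 3.46 ± 0.20 and the related phosphatase gene Ptpn6 at least 1.64-fold, a call lost with normexp. There 2 of only 8 evaluated were higher and 4 lower, beside 47.7% of all genes past 2-fold (23.5% higher, 24.2% lower). Of the 4 lower genes, the docking protein Gab1 (-3.44 ± 0.21) stayed called under each scaling tried. The other 3 lost their call under median and spike-in scaling, Gab2 (-1.39 ± 0.33) also with normexp, and Sos1 also with normexp, quantile normalization and cyclic loess. Between NSCL61 and NSC, Frs2 (1.16 ± 0.20) and Gab2 (1.09 ± 0.34) were higher and Sirpa, a receptor that binds SHP2, lower (-1.12 ± 0.20). These were 42.9% of only 7 evaluated, beside 28.4% of all genes. Of these, Frs2 lost its call under spike-in scaling (0.92) and Gab2 under spike-in scaling, cyclic loess and normexp (down to 0.44).

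Of 7 substrates of Src-type kinases, 0 were called between NSC-Ceacam1L and NSC, beside 16.5% of all genes. Calls made up 42.9% between NSCL61-Ceacam1sh and NSCL61, beside 47.7% of all genes, and 42.9% between NSCL61 and NSC, beside 28.4%. On NSCL61-Ceacam1sh, Cav1, the coat protein of caveolae, was seen at -0.86 and was at least 13.8-fold above NSCL61, and Khdrbs1 was higher by 1.56 ± 0.20, while Stat3 was lower (-1.74 ± 0.20). Between NSCL61 and NSC, the actin regulator Cttn was higher by 1.24 ± 0.20, and Cav1 (at least 1.69-fold, a call lost with normexp) and Dab1, the Reelin adaptor phosphorylated by Fyn, were lower, the latter at -2.10 ± 0.21. Cav1 and the sum of the fibroblast markers, at 32.4 on NSCL61-Ceacam1sh against 0.435 on NSCL61, were both higher on the same array, and the part of the one in the other was not tested. Of these markers Thy1 went the other way, seen on NSCL61 at -3.21 and not well above background on NSCL61-Ceacam1sh.

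**Figure D4:**
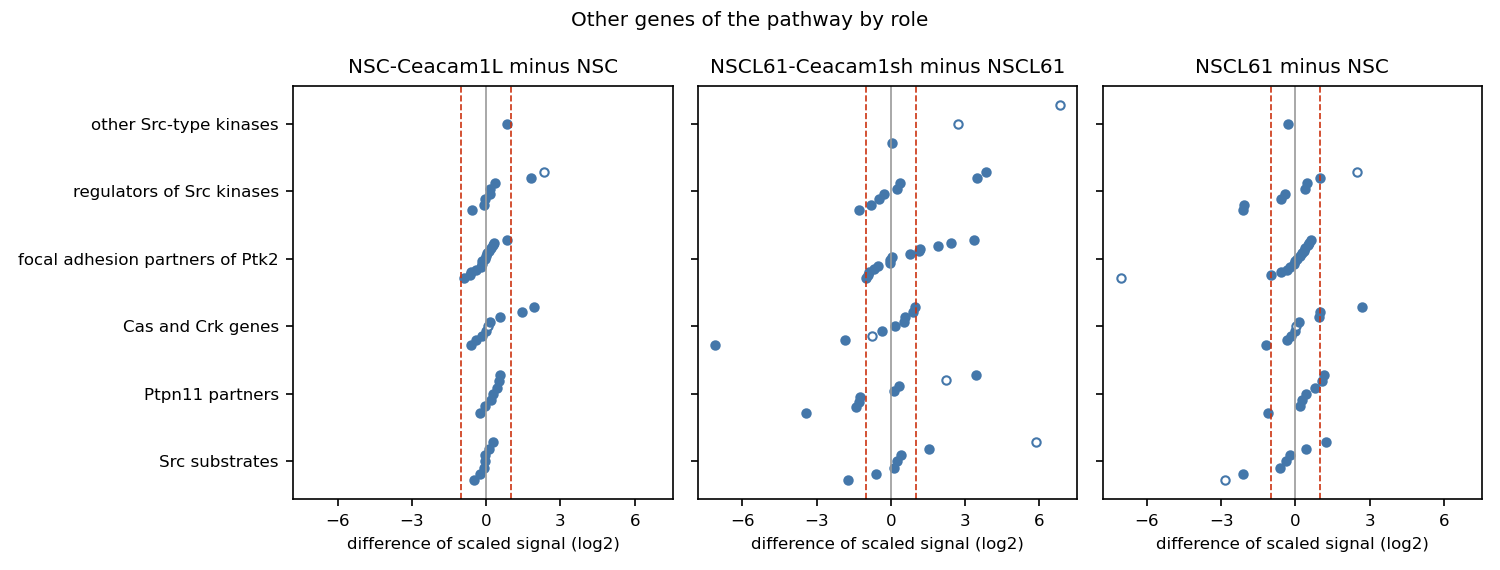
Difference of scaled signal (log2, horizontal axis) of the other pathway genes, 1 point per gene evaluated, by role (rows) in the 3 comparisons; open points were seen on 1 of the 2 arrays, and dashed lines mark 2-fold. In the first panel 4 points lie past 2-fold, all to the right, and in the middle panel 13 lie to the right and 9 to the left.

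Promoter sequence was read for the genes from RefSeq windows of 300 bases on GRCm38.p6 (250 before and 50 after a start). Src, Fyn, Yes1, Csk, Bcar1 and Ptpn11 matched, 6 of 9, with 8 windows. Matches of fixed letters on either strand were counted, as a description and not as sites. GGGCGG, the GC box letters, occurred in 7 of the 8 windows, beside 35.7% of 32851 windows genome-wide. CCAAT occurred in the Fyn window and in 1 of 2 Bcar1 windows, beside 37.4% of windows. TATAAA, TTCNNNGAA and CACGTG occurred in 0 of the 8, beside 13.6%, 8.3% and 7.15% of windows. The GC content ran from 56.0% to 82.3%, beside a median of 52.7%, and CpG counts from 9 to 47, beside a median of 7. The upstream sequences of Bcar1 and Fyn are shown because these genes had the largest differences among those with a window, with GGGCGG or CCAAT matches in capitals.
Bcar1, chr8:111743850-111744099, minus strand, GRCm38.p6: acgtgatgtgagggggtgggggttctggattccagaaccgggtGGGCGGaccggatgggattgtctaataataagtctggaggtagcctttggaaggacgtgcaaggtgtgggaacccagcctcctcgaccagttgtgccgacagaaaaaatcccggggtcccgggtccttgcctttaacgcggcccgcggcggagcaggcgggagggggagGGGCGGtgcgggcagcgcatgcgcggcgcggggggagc
Fyn, chr10:39369549-39369742, plus strand, GRCm38.p6: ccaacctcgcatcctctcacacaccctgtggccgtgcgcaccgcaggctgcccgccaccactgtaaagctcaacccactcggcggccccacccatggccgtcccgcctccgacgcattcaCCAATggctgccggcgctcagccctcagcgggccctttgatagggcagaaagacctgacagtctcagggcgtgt
The Bcar1 stretch of 250 bases has 22 CpG and 2 GC boxes, and the Fyn stretch of 194 bases has 15 CpG, 1 CCAAT and 0 GC boxes. The GC box of the Fyn window lies just past the end of the stretch shown, and the window without one is a Csk window.

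Some genes followed the 4 variable members closely over the 4 arrays. Likeness was the Euclidean distance between the 4 log2 levels after each gene's mean was taken off, over 12488 genes seen on all arrays. Nearest to Fyn were Mtap (0.17), Ttyh3 (0.20) and Zscan18 (0.21), and 45 genes lay within 0.5. Nearest to Bcar1 were Pitpnm1 (0.12), Lpin3 (0.19) and Ezr (0.28), with 8 within 0.5. Lyn had 2 genes within 0.5, Lor (0.45) and Bcl11a (0.47), and then Nrgn at 0.71. Src had 255 within 0.5, led by H2-T22 (0.06), Plcb4 (0.11) and Gpd2 (0.11). With 4 arrays, such likeness is a description of these arrays alone.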

How the data were processed

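Per the file headers, the deposited intensity values are background-subtracted processed signals from Feature Extraction 10.7.3.1 (protocol GE1_107_Sep09, design 028005, mm9), with 62976 spots per array and 59305 besides controls. The submitters' processing notes give version 9.1 of Agilent Feature Extraction. Signals in the NSC file have no more than 3 significant digits, and 58 of its gene names are altered, so names came from the NSCL61 file. The authors' deposited value table is in log2 (slope 1 against the scanner values, column medians 0.25, -0.20, 0.00 and 0.03). How it was centred is unknown, and it was used as an alternative.

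The signals of an array were divided by their 75th percentile (480.0, 571.1, 438.8 and 541.4 in the order NSC, NSC-Ceacam1L, NSCL61, NSCL61-Ceacam1sh) before taking log2. Spots marked as outliers (187, 143, 144 and 147) were dropped, and no spot was saturated. A probe was seen when at least 50% of its spots were well above background. Names were updated with a RefSeq table (GRCm38.p6), matching by accession (27315 probes), symbol (3533) or older symbol (551), 58 kept the file's name and 24224 had none. A gene was represented by its probe with the highest mean. It was evaluated when seen on at least 1 of the 2 arrays and called from a log2 difference of 1.0 in either direction when seen on the brighter. For genes seen on 1 array, "at least" sets the bright value against the higher of the dim value and the lowest signal well above background on that array. Errors are the scanner's modelled errors, combined as the root of summed squares.

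Named genes are the 9 members and, of the list of 56, at most the 2 largest differences per direction, role and comparison. Pxn, Tln1 and Sos1 fall outside that rule and were named after their values were seen. A result for 1 gene of that list is not reported here. The members and lists were chosen with earlier results of these data known. The 11 alternatives covered scaling, normalization (limma 3.58.1 in R 4.3.3, with 8 spike-in probes and a normexp offset of 50), filters, probe choice, the value table and a 1.5-fold threshold. The calculation was tested on simulated data. Python 3.11.15, numpy 2.4.6 and pandas 2.3.3 were used.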

Additional observations from a re-analysis of the deposited data

How the results depend on the processing

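None of the 7 called differences of the genes reversed under the alternatives run. Of their 70 alternative values, 52 moved by less than the modelled error, 15 moved further and 3 missed 2-fold: Lyn between NSC-Ceacam1L and NSC under spike-in scaling (-0.98), and Lyn (0.67) and Src (0.35) between NSCL61-Ceacam1sh and NSCL61 with normexp. Many of the 52 were fixed in advance, because each called gene had 1 probe of 1 spot, seen on all 4 arrays. Averaging probes, keeping outlier spots and changing the filter on dim probes could only return the main values, so the tally overstates how stable the calls are. Of 18 uncalled differences (179 alternative values), 4 values passed 2-fold, those of Csk and Pag1 given with these genes. The median of the genes between NSC-Ceacam1L and NSC was -0.15 and became 0.25 under cyclic loess, 0.19 under quantile normalization and 0.23 under spike-in scaling. Between NSCL61-Ceacam1sh and NSCL61 it was 0.18 and became -0.15 under cyclic loess, -0.09 under quantile normalization, 0.60 with median scaling and 0.61 with spike-in scaling. Between NSCL61 and NSC it was -0.24 under spike-in scaling. At 1.5-fold, 5 genes were called between NSCL61-Ceacam1sh and NSCL61 and 4 between NSCL61 and NSC, and with normexp 1 (Fyn) remained called in the former. Of all genes, 66.4% were called between NSCL61-Ceacam1sh and NSCL61 at 1.5-fold and 35.9% with normexp. The percentage of all genes called between NSC-Ceacam1L and NSC was 34.0% at 1.5-fold, 8.25% with normexp and 11.0% when both arrays had to be above background, and between NSCL61 and NSC 45.2% at 1.5-fold and 18.1% with normexp. The cause of these shifts was not tested. No paired analysis was possible because each group had 1 array, and no replicate could be left out. Signal over background limits Pag1, the third Ptk2 probe and, on NSCL61, Lyn and Src.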
